A study of Arabidopsis thaliana with 4 samples.

Results

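The clade A protein phosphatases of abscisic acid (ABA) signalling are a family of 9 Arabidopsis thaliana genes, ABI1, ABI2, HAB1, HAB2, AHG1, AHG3, HAI1, HAI2 and HAI3. They were taken by identifier from a table of 27554 genes, and all 9 were present in it. The table holds ribosome footprint counts, where a footprint is the short piece of mRNA that a translating ribosome shields from nuclease, from whole seedlings aged 6 days. There were 2 libraries of wild type (WT) and 2 of line 5, in which ClpD, a chaperone of the chloroplast stroma made as a precursor in the cytosol, is overexpressed constitutively in the WT background. The promoter of the transgene is not given in the sources used here, and line 5 is the only line analysed, so ClpD overexpression and any other difference of that line cannot be told apart. The labels are silent on whether libraries sharing a group were grown separately, so the p-values measure only the spread between these libraries, which may be technical. The submitters' design text asks which genes change in transcription and which in translation when a chloroplast precursor accumulates. Footprint counts follow mRNA level and ribosome occupancy together, and RNA-seq of the same material was not used here. In whole seedlings, fewer cells of a type and less mRNA per cell cannot be told apart either.

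ABA is the hormone that slows growth and closes stomata under water deficit and keeps seeds dormant. Without it, clade A phosphatases bind SnRK2 kinases and remove the phosphate that activates them. When ABA is present, the PYR/PYL receptors bind it and then dock on the phosphatases, which frees the kinases to phosphorylate ion channels and transcription factors. The phosphatase genes are themselves induced by ABA, which makes them both brakes and markers of the pathway. ABI1, ABI2, HAB1 and HAB2 form one branch of the family, and AHG1, AHG3 and the HAI genes the other.

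Before the members are described, the libraries themselves need a few values. Total counts ranged from 27260818 to 42291527. ClpD (ERD1, AT5G51070) went from 167 and 175 to 3112 and 3302 CPM (footprint counts scaled by library total and by edgeR's TMM factor), so the libraries carry the overexpression their labels name. WT replicate 1 stood apart from WT replicate 2 in ABA-related genes: all 23 genes of a list of ABA-induced genes were higher in it, by a median of 4.91-fold, against 50.6% of all genes tested. All 7 testable phosphatases were also higher in WT replicate 1, from 1.17-fold to 6.54-fold. The phosphatases and the called pathway genes are therefore given with and without that library. A fit without a WT library has 1 WT library, which is assumed to vary like the line 5 pair, the group with the smaller spread (SD of the log2 difference between its libraries 0.344, against 0.512 in WT). Calls gained or kept in such a fit are no independent support, and their fold changes are the values to compare. Markers of green tissue were abundant (summed 34490 and 39150 CPM in WT, 24320 and 20570 in line 5), and 3 of 5 were called lower. The 5 guard cell markers summed to 32.2 and 31.8 CPM in WT and 31.2 and 35.6 in line 5, and only KAT1 among them was called, higher. Of 9 seed markers 6 were tested and 0 called, with sums of 24.1 and 28.3 CPM in WT and 11.0 and 4.63 in line 5. The root gene PYK10 was abundant in every library (806 and 1026 CPM in WT, 997 and 986 CPM in line 5), and 0 of 2 tested root markers were called. The root hair markers COBL9 and EXPA7 had at most 5 counts in any library, although whole seedlings include roots. The flower markers summed to at most 0.600 CPM, and AP1 had 0 counts in all but replicate 2 of line 5. No marker of these lists was at 0 in every library. The part of any of these differences in the results below was not tested.

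Footprints of 4 phosphatase genes were lower in line 5, AHG3, HAB1, ABI2 and HAB2, and none was higher. Their fitted decreases ran from 1.63-fold for HAB2 to 5.12-fold for AHG3. The ABA-inducible HAI1 and HAI2 had the largest fitted decreases of the family but did not pass the test, and their WT libraries differed more than 6-fold. ABI1 did not pass either. Of 7 genes tested, 4 were called lower and 0 higher (edgeR quasi-likelihood test, Benjamini-Hochberg adjustment over all 18737 genes tested, threshold 0.05). Over all genes, 8.72% (1633) were called lower and 6.72% (1260) higher. On the deposited FPKM scale this split turned over, with 1123 lower and 2927 higher by limma on log2(FPKM + 1), where the median gene was shifted up by 0.20, but each of the 7 members stayed negative. The median log2 fold change was -1.66 over the 7 members and 0.0023 over all genes. All 7 passed the filter on low counts in the 2 libraries of each group, so none entered through WT alone; AHG1 and HAI3 passed in neither group.

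**Figure D1:**
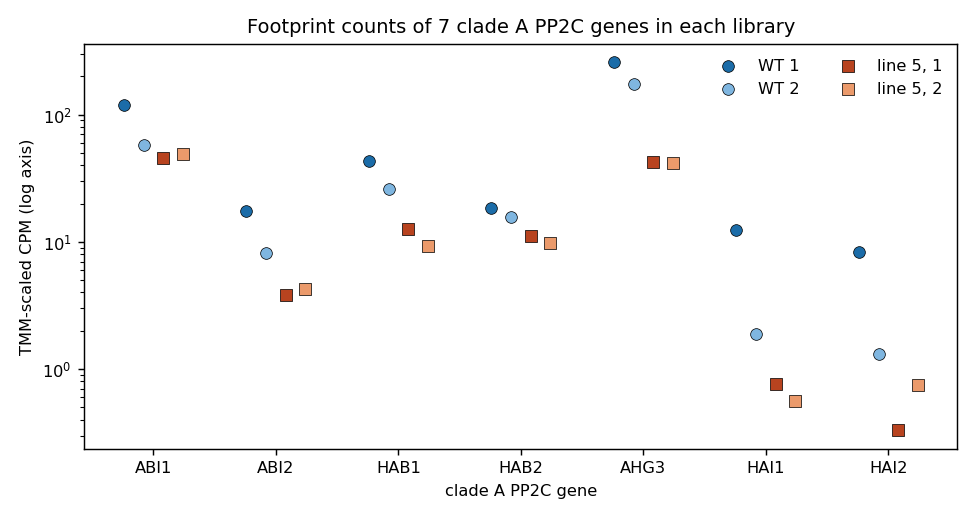
Level of the 7 tested clade A PP2C genes in each library, as TMM-scaled CPM on a log axis; circles are the 2 WT libraries and squares the 2 line 5 libraries. For each gene both squares lie below both circles, and the WT circles lie far apart for HAI1 (12.4 and 1.90 CPM) and HAI2 (8.25 and 1.32 CPM).

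AHG3, listed in RefSeq as PP2CA (AT3G11410), is a phosphatase that restrains ABA responses in seeds and seedlings and acts on guard cell ion channels. It had 7292 and 4215 footprints for WT, and 1939 and 1776 for line 5. Scaled, this was 257 and 174 CPM in WT against 42.7 and 41.5 CPM in line 5. The WT libraries were far above the line 5 libraries, which nearly coincided. The log2 fold change was -2.36 (SE 0.209, edgeR, adjusted p = 0.0136). Without WT replicate 1 it was -2.05 (edgeR, adjusted p = 0.000346), and without WT replicate 2 it was -2.61 (edgeR, adjusted p = 0.000138). Without replicate 1 or replicate 2 of line 5, where the WT pair gives the spread, the log2 fold change was -2.38 and -2.33 and was not called (edgeR, adjusted p = 0.0809 and 0.155).

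ABI1 (AT4G26080) and ABI2 (AT5G57050) are close paralogs in which dominant mutations, found by screening for ABA-insensitive plants, first defined the pathway. ABI1 had 120.0 and 57.4 CPM in WT and 45.6 and 49.1 CPM in line 5. WT replicate 2 lay just above the line 5 pair, and WT replicate 1 well above all 3. Its log2 fold change of -0.91 (SE 0.347) was not called (edgeR, adjusted p = 0.134). Without WT replicate 1 the value was only -0.28 (edgeR, adjusted p = 0.142), and without WT replicate 2 it was -1.34 (edgeR, adjusted p = 0.00142), so 1 library sets its size. On the deposited FPKM scale, which divides by length and library total without TMM, the groups overlapped for ABI1, with 85.5 and 38.1 in WT and 36.7 and 40.4 in line 5.

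ABI2, in contrast to ABI1, was called. It had 17.4 and 8.17 CPM in WT and 3.83 and 4.30 CPM in line 5, with no overlap. The log2 fold change was -1.66 (SE 0.375, edgeR, adjusted p = 0.0465), close to the threshold. It was -1.01 without WT replicate 1 (edgeR, adjusted p = 0.0120), a 2.01-fold decrease in place of 3.15-fold, and -2.09 without WT replicate 2. The call was lost without replicate 1 or replicate 2 of line 5 (edgeR, adjusted p = 0.203 and 0.252), with a replicate block (edgeR, adjusted p = 0.0771) and on the FPKM scale (limma on log2(FPKM + 1), log2 fold change -1.15, adjusted p = 0.0689). Whether ABI1 and ABI2 changed by different amounts was not tested.

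HAB1 (AT1G72770) and HAB2 (AT1G17550) are the closest relatives of the ABI pair, and HAB1 is a main partner of the receptors in structural work. HAB1 had 43.0 and 25.8 CPM in WT and 12.7 and 9.34 CPM in line 5, so that each line 5 library was well below each WT library. Its log2 fold change was -1.65 (SE 0.294, edgeR, adjusted p = 0.0305), and it was -1.23 without WT replicate 1. Without replicate 1 or replicate 2 of line 5 it was -1.88 and -1.44, and the call was lost. HAB1 transcripts are alternatively spliced, and the counts per gene do not separate the forms. HAB2 had the most even WT pair of the family, 18.5 and 15.8 CPM, against 11.2 and 9.88 CPM in line 5. The decrease was small but with little spread, a log2 fold change of -0.70 (SE 0.141, edgeR, adjusted p = 0.0372). Without WT replicate 1 it was -0.59 (edgeR, adjusted p = 0.0330). The call was lost without replicate 1 or replicate 2 of line 5 (edgeR, adjusted p = 0.136 and 0.256), with a replicate block (edgeR, adjusted p = 0.0635), and on the FPKM scale, where the log2 fold change was -0.41 (limma on log2(FPKM + 1), adjusted p = 0.111).

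The HAI genes are named for their strong induction by ABA. HAI1 (AT5G59220), also known as SAG113 for its rise in senescing leaves, had 352 and 46 footprints in WT and 35 and 24 in line 5. That is 12.4 and 1.90 CPM against 0.770 and 0.561 CPM, so WT replicate 1 was 6.54-fold above WT replicate 2. The log2 fold change of -3.43 (SE 0.930) missed the threshold (edgeR, adjusted p = 0.0664). Against WT replicate 2 alone a 10.8-fold decrease became a 2.84-fold one, a log2 fold change of -1.51 (edgeR, adjusted p = 0.0372, with the spread taken from the line 5 pair).

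HAI2 (AT1G07430), also named HONSU for its role in seed dormancy and AIP1 as a partner of the potassium channel AKT1, followed a similar course. It had 234 and 32 footprints in WT and 15 and 32 in line 5, or 8.25 and 1.32 CPM against 0.330 and 0.747 CPM. In counts, WT replicate 2 and replicate 2 of line 5 were equal, and only scaling by library size separates them. The log2 fold change was -3.17 (SE 0.95, edgeR, adjusted p = 0.0819), and -1.30 without WT replicate 1 (edgeR, adjusted p = 0.145), a 2.46-fold decrease in place of 8.97-fold.

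HAI3 (AT2G29380) and AHG1 (AT5G51760) were almost without footprints. HAI3 had 3 and 2 counts in WT but only 1 in each line 5 library. Summed over libraries and scaled, the WT level was 4.20 times that of line 5, with a 95% exact binomial counting interval of 0.687 to 44.1. AHG1, known mainly from seeds, had a single footprint in WT replicate 1, another in replicate 2 of line 5 and none elsewhere. For both genes a difference was not detectable at this depth, where 3 counts stand for 0.0660 to 0.124 CPM. The interval covers counting error only.

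**Figure D2:**
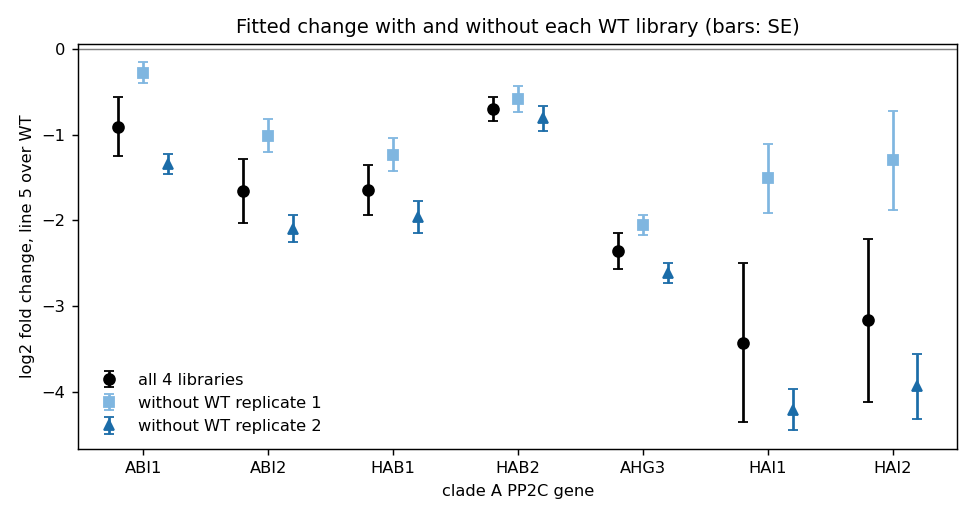
Fitted log2 fold change of line 5 over WT for the 7 tested genes. Black circles are fits with all 4 libraries, light squares without WT replicate 1 and dark triangles without WT replicate 2. Bars are SE of the fit. Without a WT library that SE rests on the spread of the line 5 pair alone, so bar lengths are not comparable between fits. All values are below 0; those of HAI1 and HAI2 move most, from -1.51 to -4.21 and from -1.30 to -3.94, and those of HAB2 and AHG3 least.

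The count of called members depended on the library left out and on the tool. Without WT replicate 1, 5 of 7 members were called lower, where 15.1% of all genes were lower and 11.4% higher, with the spread taken from the line 5 pair alone. Without WT replicate 2, with the spread again from line 5, all 7 were called, with 10.2% of all genes lower. Without replicate 1 of line 5, and likewise without its replicate 2, 0 of the 7 were called. The spread then comes from the WT pair alone, and these fits called 0.074% and 0.0159% of all genes lower. All 7 members had both line 5 libraries below both WT libraries, as 33.4% of all genes did, and 34.7% had both above. Against WT replicate 2 alone, all 7 fitted log2 fold changes were negative, as were those of 48.3% of all genes, with a median of -1.23 over the members. DESeq2 called all 7 lower (adjusted p from 2.94e-22 for AHG3 to 0.0339 for ABI1), where it called 11.2% of all genes lower. The authors' deposited table likewise lists 7 with an FDR under 0.05 and a negative log2 fold change, from -0.47 for HAB2 to -3.17 for HAI1, among 7.5% of all its genes. Its fold changes are ratios of mean FPKM, a scale on which the median gene is 0.24 higher in line 5 on log2.

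Per unit of length, AHG3 and ABI1 made up most of the family. In WT the order by deposited FPKM was AHG3 (199 and 125), ABI1 (85.5 and 38.1), HAB1 (26.6 and 14.8), HAB2 (11.2 and 8.96), ABI2 (13.1 and 5.92), HAI1 (10.05 and 1.49), HAI2 (5.77 and 0.860), HAI3 (0.0900 and 0.0700) and AHG1 (0.0300 and 0). In WT the libraries of AHG3 and ABI1 did not overlap, nor did those of ABI1 and HAB1 or of HAB1 and HAB2. Within each WT library ABI2 was above HAI1 and HAI1 above HAI2, although each of these overlapped with its neighbour across the libraries. HAB2 and ABI2 changed places between the WT libraries. In line 5 ABI1 and AHG3 were at like levels and changed places between libraries, with FPKM of 36.7 and 40.4 against 37.2 and 37.0. HAB1 (8.81 and 6.54) and HAB2 (7.67 and 6.92) also overlapped, while ABI2 (3.24 and 3.69) lay below them and above HAI1 (0.680 and 0.600) and HAI2 (0.260 and 0.600).

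The summed FPKM of the 9 genes was 351 and 196 in WT and 94.6 and 95.7 in line 5. The line 5 libraries were alike and below both WT libraries, which differed between themselves. AHG3 held 56.6% and 64.1% of the sum in WT and 39.4% and 38.6% in line 5. ABI1 held 24.4% and 19.5% in WT and 38.8% and 42.2% in line 5. HAI1 and HAI2 together had a visible share in WT replicate 1, at 2.86% and 1.64%, and each was under 1% of the sum elsewhere (0.275% to 0.762%). The shift from AHG3 towards ABI1 is therefore also present against WT replicate 2 alone.

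**Figure D3:**
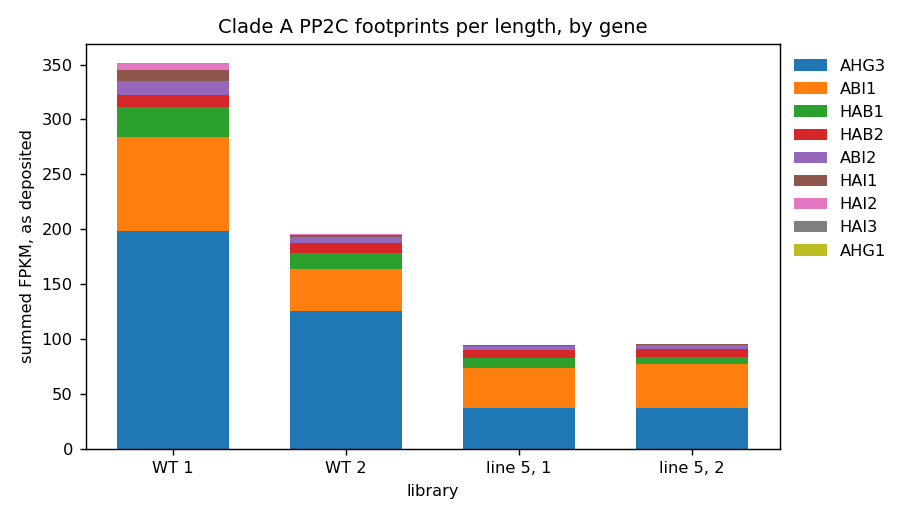
Summed deposited FPKM of the 9 clade A genes in each library, stacked by gene from AHG3 at the base. The stack falls from 351 and 196 in WT to 94.6 and 95.7 in line 5, and the AHG3 block shrinks while the ABI1 block stays near the height it has in WT replicate 2. On TMM-scaled CPM, not drawn here, ABI1 in line 5 (45.6 and 49.1) lies below WT replicate 2 (57.4).

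The receptors that inhibit these phosphatases moved both ways. Of 14 PYR/PYL genes 9 were tested, 1 was called higher and 3 lower, against 6.72% and 8.72% of all genes. The median log2 fold change was 0.25, against 0.0023 over all genes. PYL6 (AT2G40330) had 0.882 and 1.49 CPM in WT and 7.79 and 9.95 CPM in line 5, a 7.55-fold increase (log2 fold change 2.92, SE 0.298, edgeR, adjusted p = 0.0148). PYL7 (AT4G01026) had 26.4 and 15.6 CPM in WT and 5.46 and 7.36 CPM in line 5 (log2 fold change -1.71, edgeR, adjusted p = 0.0294). PYL9 (AT1G01360, listed as RCAR1) had nearly equal WT libraries, 11.7 and 11.5 CPM, and 4.8 and 5.12 CPM in line 5 (log2 fold change -1.23, edgeR, adjusted p = 0.0153). PYL2 (AT2G26040) had 3.42 and 2.89 CPM in WT and 1.69 and 1.61 CPM in line 5 (log2 fold change -0.93, edgeR, adjusted p = 0.0447), a call that was lost without WT replicate 1 (edgeR, adjusted p = 0.0782). Without that library PYL6, PYL7 and PYL9 had 2.57, -1.29 and -1.21 on the log2 scale.

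The receptor genes PYL4 and PYL5, chosen here after their values were seen, were higher in each line 5 library than in each WT library. Including them, 4 of the 9 tested receptors had both line 5 libraries above both WT libraries, and 3 had both below. Over all genes the shares were 34.7% and 33.4%. PYL5 (AT5G05440) had 29.4 and 53.9 CPM in WT and 95.4 and 101 CPM in line 5, just short of the threshold (log2 fold change 1.24, edgeR, adjusted p = 0.0501). PYL4 (AT2G38310) had 34.0 and 60.6 CPM against 94.4 and 87.8 CPM (edgeR, adjusted p = 0.0780). Here WT replicate 1 was the lower of the WT pair, the opposite of the phosphatases. Without it the log2 fold changes of PYL4 and PYL5 were 0.59 and 0.86. Without WT replicate 2 they were 1.42 and 1.74. Summed receptor FPKM was 266 and 351 in WT and 535 and 553 in line 5. Much of this difference lay in PYL4 (49.4 and 82.1 in WT, 155 and 147 in line 5) and PYL5 (43.5 and 74.4, then 159 and 172). On the FPKM scale the median gene was also 0.24 higher in line 5 on log2. Summed as TMM-scaled CPM, the receptors had 178.5 and 252.7 in WT and 320.6 and 323.1 in line 5. The ratio of summed phosphatase FPKM to summed receptor FPKM, a ratio of levels per length, was 1.32 and 0.558 in WT and 0.177 and 0.173 in line 5. The line 5 ratios nearly coincided and lay below both WT ratios, which differed by more than 2-fold. PYL12 and PYL13 had 0 counts in every library, and PYL3, PYL10 and PYL11 had at most 7.

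Among the SnRK2 kinases, which the phosphatases switch off, 9 of 10 genes were tested (median log2 fold change 0.02). Of these, 2 were called higher and 1 lower, against 6.72% and 8.72% of all genes. SNRK2.2 (AT3G50500) and SNRK2.3 (AT5G66880) are, with SNRK2.6, the strongly ABA-activated kinases. SNRK2.2 had 24.1 and 18.5 CPM in WT and 42.1 and 71.8 CPM in line 5 (log2 fold change 1.42, SE 0.292, edgeR, adjusted p = 0.0386). SNRK2.3 had 15.2 and 18.3 CPM in WT and 27.9 and 41.2 CPM in line 5 (log2 fold change 1.05, edgeR, adjusted p = 0.0414). SNRK2.6 (AT4G33950, OST1), the kinase of guard cells, went the other way, from 25.1 and 23.1 to 15.6 and 12.2 CPM (log2 fold change -0.79, SE 0.157, edgeR, adjusted p = 0.0367). Without WT replicate 1 the log2 fold changes were 1.62, 0.92 and -0.73 for SNRK2.2, SNRK2.3 and SNRK2.6. SNRK2.7 (AT4G40010), of 4.73 and 1.94 CPM in WT and 0.836 and 0.981 CPM in line 5, was not called (log2 fold change -1.88, edgeR, adjusted p = 0.0564), and had -1.09 without WT replicate 1.

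Other proteins bound by clade A phosphatases, or placed under their control with the SnRK2 kinases, include potassium and anion channels and calcium-dependent kinases. All 14 listed genes were tested, 3 were called higher and 1 lower, against 6.72% and 8.72% of all genes. The median log2 fold change was 0.15. The inward potassium channel gene KAT2 (AT4G18290) rose from 7.44 and 5.90 to 19.1 and 14.0 CPM (log2 fold change 1.31, edgeR, adjusted p = 0.0269). KAT1 (AT5G46240) rose from 6.17 and 6.89 to 10.9 and 12.8 CPM (log2 fold change 0.86, edgeR, adjusted p = 0.0296). The kinase gene CPK6 (AT2G17290) rose from 21.7 and 22.8 to 39.4 and 43.3 CPM (edgeR, adjusted p = 0.0184). The phloem channel gene AKT2 (AT4G22200) fell from 54.3 and 71.7 to 29.6 and 22.4 CPM (edgeR, adjusted p = 0.0262). Without WT replicate 1 the log2 fold changes were 1.49 for KAT2, 0.78 for KAT1, 0.86 for CPK6 and -1.47 for AKT2. SLAC1, the guard cell anion channel held off by these phosphatases and named here for that role, was low throughout, at 1.62 and 1.49 CPM in WT and 1.54 and 1.89 CPM in line 5.

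Known regulators of the phosphatases were mostly not called. All 12 were tested, 1 was called higher and 1 lower, with a median log2 fold change of -0.02. These counts are near the shares of all genes, 6.72% higher and 8.72% lower. The receptor kinase gene FER (AT3G51550), which acts through ABI2, rose from 169 and 158 to 242 and 294 CPM (log2 fold change 0.71, edgeR, adjusted p = 0.0327). The exchange factor gene ROPGEF1 (AT4G38430), which links FER to small GTPases, fell from 27.6 and 34.3 to 17.4 and 15.2 CPM (log2 fold change -0.92, edgeR, adjusted p = 0.0279). The ubiquitin ligase genes PUB12 and PUB13, whose products mark ABI1 for degradation and which are named for that role, were not called (log2 fold change -0.05 and 0.23). EAR1 (AT5G22090), a protein that enhances the activity of these phosphatases, had -0.26 (edgeR, adjusted p = 0.119). DOG1 (AT5G45830), the dormancy protein that binds AHG1 and AHG3, had 20 and 5 footprints for WT and 64 in each line 5 library (log2 fold change 1.63, edgeR, adjusted p = 0.0911). When WT replicate 1 was left out, the log2 fold change was 2.79 for DOG1, 0.76 for FER and -1.07 for ROPGEF1.

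Downstream, the transcription factor genes ABF2 and ABF3 also fell. Of 10 listed factors 7 were tested (median log2 fold change -0.32). Of these, 0 were called higher and 2 lower, against 6.72% and 8.72% of all genes. ABF3 (AT4G34000) had 78.8 and 47.0 CPM in WT and 13.7 and 9.69 CPM in line 5 (log2 fold change -2.43, SE 0.312, edgeR, adjusted p = 0.0201). ABF2 (AT1G45249) had 31.6 and 22.5 CPM in WT and 7.86 and 8.78 CPM in line 5 (log2 fold change -1.70, edgeR, adjusted p = 0.0176). Without WT replicate 1 the log2 fold changes of ABF3 and ABF2 were -2.01 and -1.43. ABF4 had -0.32 (edgeR, adjusted p = 0.123), and ABF1, at 2.05 and 1.03 CPM in WT and 2.75 and 9.58 in line 5, was not called (log2 fold change 1.98, edgeR, adjusted p = 0.111) and had 2.57 without WT replicate 1 (edgeR, adjusted p = 0.0676).

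The list of ABA-induced genes separated into members that stayed low against WT replicate 2 and members that did not. All 23 were tested, 5 were called lower and 0 higher, against 8.72% and 6.72% of all genes. The median log2 fold change was -2.08. HB12 (AT3G61890) and HB7 (AT2G46680), homeodomain factors known to act on phosphatase genes, had log2 fold changes of -3.09 and -2.99 (edgeR, adjusted p = 0.0136 and 0.0157). GBF3 (AT2G46270) had -2.20 and RD26 (AT4G27410) -2.53 (edgeR, adjusted p = 0.0237 and 0.0429), and TSPO (AT2G47770), named to complete the 5, had -3.99 (edgeR, adjusted p = 0.0433). Without WT replicate 1 the values were -2.68 for HB12, -2.48 for HB7, -1.64 for GBF3, -1.49 for RD26 and -2.42 for TSPO. The list median was then -0.85, and 15 of the 23 log2 fold changes were negative, as were those of 48.3% of all genes. The others were positive, at 3.64 for COR15B, 2.65 for LTI30, 2.12 for RD29A, 1.48 for KIN1 and 1.17 for COR15A. NAC019, KIN2 and RD22 had 0.75, 0.44 and 0.41. RD29A, described next, was chosen after its values were seen. RD29A (AT5G52310, listed as LTI78), for example, had 667 and 86.5 CPM in WT and 273 and 478 CPM in line 5, so that WT replicate 1 was above and WT replicate 2 below both line 5 libraries. None of the 7 phosphatases showed that arrangement, since all 7 had both line 5 libraries below both WT libraries. The same held for 15 of the 23 ABA-induced genes and for 33.4% of all genes.

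**Figure D4:**
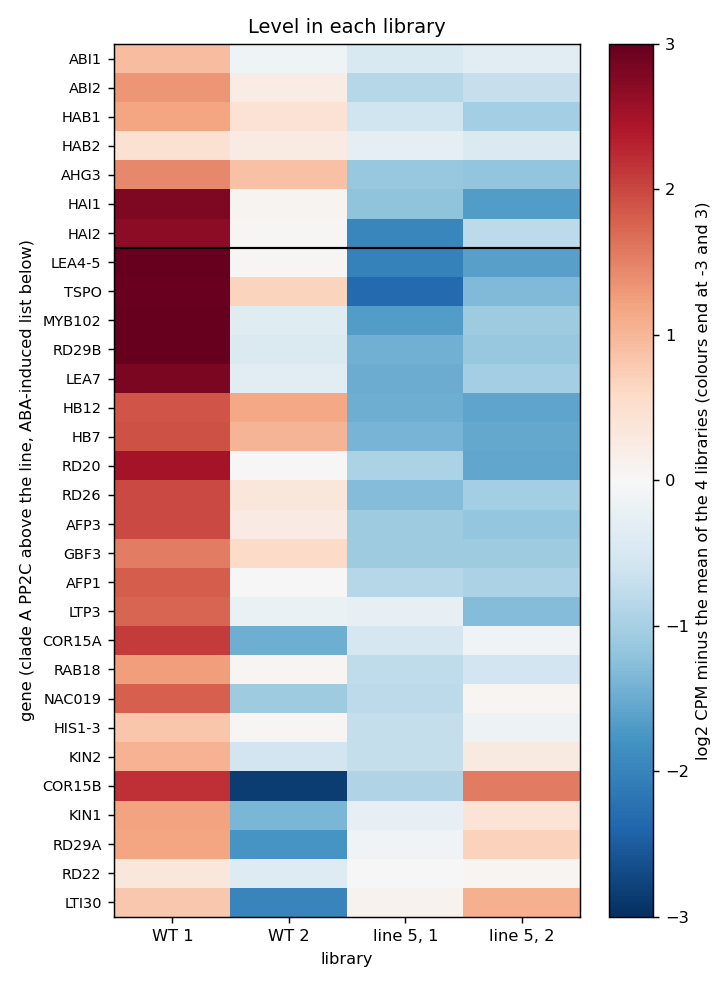
Level of the 7 tested phosphatases (above the line) and the 23 ABA-induced genes (below) in each library, as log2 CPM minus the mean of the 4 libraries, red above and blue below that mean. WT replicate 1 is the higher WT library for all 30 genes. Both line 5 libraries are below both WT libraries for the 7 phosphatases and for 15 of the 23 ABA-induced genes. Others, such as COR15B, RD29A and LTI30, are lowest in WT replicate 2.

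**Figure D5:**
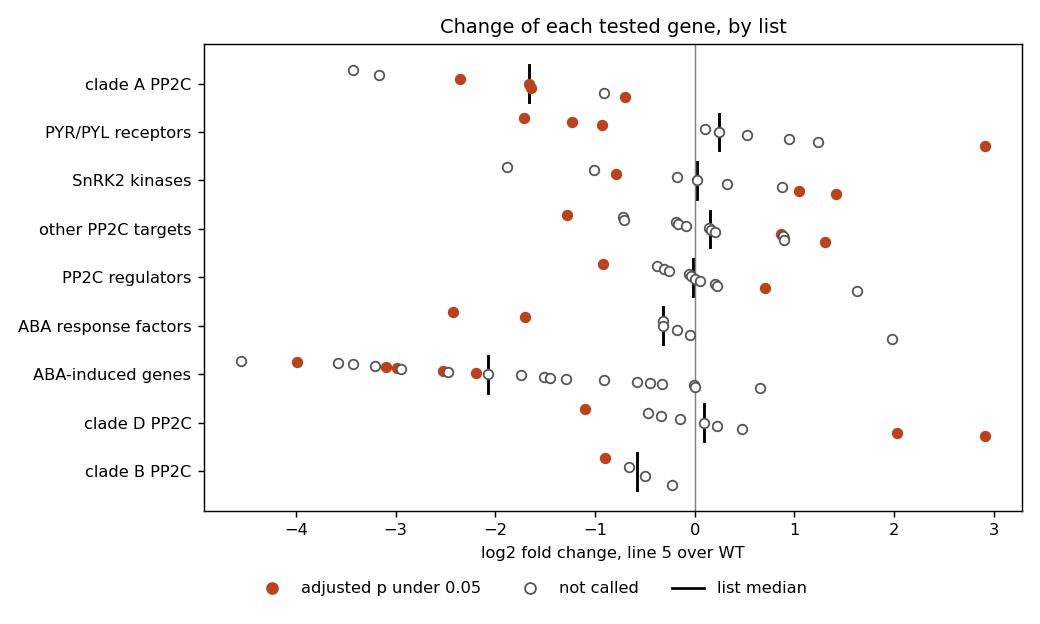
Fitted log2 fold change, line 5 over WT, of each tested gene by list; filled points have an adjusted p under 0.05, open points do not, and the black bar is the list median. Clade A medians lie at -1.66 and ABA-induced genes at -2.08, while receptors (0.25), SnRK2 kinases (0.02), other targets (0.15) and regulators (-0.02) have points on both sides of 0.

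The genes most like each called member over the 4 libraries were found by the Euclidean distance of their centred log2 CPM values, among 12913 other genes with a mean of at least 5 CPM. For AHG3 these were DMR6 (AT5G24530, distance 0.0421), AT1G67856 (0.141) and the heat shock factor gene HSFC1 (AT3G24520, 0.194). DMR6 had 19.2 and 12.6 CPM in WT and 3.17 and 3.06 CPM in line 5. For HAB2 they were SGP2 (0.0411), PHO2 (0.0498) and HTA12 (0.0511), and for HAB1 AT2G21560 (0.122), AT1G33700 (0.127) and MT1C (0.185). For ABI2 they were WRKY30 (0.192), AT4G38810 (0.193) and the ABA-induced dehydrin gene RAB18 (AT5G66400, 0.232). With 4 libraries such likeness is a description only.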

How the data were processed

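The deposited table gives, per the file headers, each gene's count and FPKM by library, plus mean FPKM, log2 fold change, p-value and FDR from the authors' comparison. The submitters' processing notes list fastp, Bowtie2, STAR, RSEM, DESeq2 and TAIR10; roles, versions, strand and counted features are not stated there. How reads of paralogs or antisense genes were divided was not tested. The deposited counts are whole numbers. The deposited FPKM served for levels between genes, and the authors' log2 fold change and FDR were used only where named. Rows without an identifier (5, from 0.0145% to 0.0340% of a library's counts) were left out. RefSeq names (TAIR10.1) matched 27444 of 27554 identifiers. The planned look at proteins and promoters was not run, and no coordinates or sequences are printed.

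Counts were tested with edgeR 4.0.16 in R 4.3.3 (filterByExpr with a minimum count of 10, TMM, quasi-likelihood fit on group, two-sided). SE is the log2 fold change divided by the square root of F. The fit was also run on simulated counts in which every gene and both groups had the same spread. The spread of these libraries is not equal between groups, so that run does not bear on the calls above. Alternatives were DESeq2 1.42.0, limma 3.58.1 on log2(FPKM + 1) and log2(FPKM + 0.1), other normalizations and filters, a replicate block and each library left out. Replicates of a group differed beyond counting noise, with a chi-square over its degrees of freedom of 40.8 in WT and 26.7 in line 5. Replicate numbers are shared between groups, but no label pairs them. Members, gene lists and the rule for named genes (every member, up to 4 of a list with the smallest p, receptors and SnRK2 genes that were called, the 3 nearest patterns) were chosen with earlier results of these data known.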

Additional observations from a re-analysis of the deposited data

How the results depend on the processing

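For the 7 tested phosphatases, 91 values came from 13 alternatives. All 91 log2 fold changes were negative. In CPM, all 7 had both line 5 libraries below both WT libraries, as 33.4% of all genes did. The 91 signs largely restate that observation on the same libraries. Of the 91 values, 69 stayed on the same side of the threshold, 14 lost the call and 8 gained it. The log2 fold change ranged, over the fits with 1 library left out, from -1.34 to -0.28 for ABI1, from -2.09 to -1.01 for ABI2, from -1.96 to -1.23 for HAB1, from -0.81 to -0.59 for HAB2, from -2.61 to -2.05 for AHG3, from -4.21 to -1.51 for HAI1 and from -3.94 to -1.30 for HAI2. DESeq2 called ABI1 (-0.90), HAI1 (-3.42) and HAI2 (-3.15), and edgeR without the low-count filter called HAI1 (-3.42). With limma on log2(FPKM + 0.1) and log2(FPKM + 1), ABI2 (-1.32 and -1.15) and HAB2 (-0.46 and -0.41) were not called. With a replicate block ABI2 (-1.57) and HAB2 (-0.70) were not called either.

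DESeq2 called 7 phosphatases lower, and the replicate block 2. The replicate block gave 286 genes higher and 457 lower over all genes. In the lists it gave 3 ABA-induced genes lower, 1 receptor lower, 1 SnRK2 gene higher and 0 lower, 0 regulators in either direction, 0 other targets lower, 1 clade D gene higher and 0 clade B genes lower. Deviations of same-numbered libraries from their group means correlated at -0.117. With 2 libraries a group this value cannot decide whether the numbers pair the samples. A crossed block, chosen after seeing the data, gave 1530 genes higher, 2067 lower and 5 phosphatases lower. DESeq2 gave 10 ABA-induced genes lower, 3 receptors higher, 1 response factor higher, 3 SnRK2 genes lower and 3 other targets lower. Without the low-count filter there were 10 ABA-induced genes lower, 3 receptors higher, 2 SnRK2 genes lower and 2 other targets lower. Leaving out organelle genes and upper-quartile scaling each gave 2 receptors higher. With 1 library left out, calls ranged from 25 to 2197 higher and from 3 to 2904 lower over all genes, and from 0 to 7 lower for the phosphatases. They ranged from 0 to 4 higher and 0 to 17 lower for ABA-induced genes, 0 to 5 higher and 0 to 3 lower for receptors, 0 to 2 lower for response factors, 0 to 2 in each direction for regulators, 0 to 3 higher and 0 to 2 lower for SnRK2 genes, 0 to 5 higher and 0 to 3 lower for other targets, 0 to 2 in each direction for clade D and 0 to 2 lower for clade B. The lowest counts came from fits without a line 5 library, where only the WT pair gives the spread; the cause of the other shifts was not tested. With 2 libraries a group, HAI3 and AHG1 are limited by depth.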

Other observations

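Of the other clades of this phosphatase family, clade D had genes called in both directions, and clade B had all 4 genes below 0. Some clade D enzymes remove phosphate from plasma membrane proton pumps and are held back by SAUR proteins during growth. Of its 9 genes, all tested, 2 were called higher and 1 lower, against 6.72% and 8.72% of all genes. The median log2 fold change was 0.09. PP2C.D1 (AT5G02760) had 9.27 and 14.9 CPM in WT and 90.2 and 91.3 CPM in line 5, a 7.54-fold increase (log2 fold change 2.91, SE 0.240, edgeR, adjusted p = 0.0116). PP2C.D7 (AT5G66080) had 0.882 and 0.578 CPM in WT and 2.62 and 3.43 CPM in line 5 (4.09-fold, edgeR, adjusted p = 0.0246). PP2C.D8 (AT4G33920) had 106 and 123 CPM in WT and 49.9 and 57.1 CPM in line 5 (log2 fold change -1.10, edgeR, adjusted p = 0.0181). Without WT replicate 1 the log2 fold changes of these 3 genes were 2.61, 2.38 and -1.20. Clade B enzymes act on MAP kinases. All 4 genes had a negative log2 fold change, with a median of -0.58. Against 6.72% of all genes called higher and 8.72% lower, 0 were called higher and 1 lower. This was AP2C1 (AT2G30020), from 191 and 224 CPM in WT to 115 and 107 CPM in line 5 (log2 fold change -0.90, edgeR, adjusted p = 0.0217), and -1.02 on the log2 scale without WT replicate 1. In these clades WT replicate 1 was above WT replicate 2 for 3 of 9 and 2 of 4 genes.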
